A study of Mus musculus with 8 samples.

Results

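Macrophages rich in Gpnmb were described in skin wounds of STZ-induced diabetic and control mice. A barcode was kept as a cell when it had over 200 non-mitochondrial genes and under 20% mitochondrial UMIs, and rates were taken per 10000 non-mitochondrial UMIs. Of these cells, the Gpnmb macrophages were chosen by a summed C1qa, C1qb and C1qc rate of at least 20, a Gpnmb rate of at least 8, a summed Lyve1, Cd163, Cd209f and Fcna rate under 5, and a Ctsk rate under 20. This left 1240 cells of 35158 in all, or 3.53%, and 13.5% of the 9207 cells that reached the C1q limit. The cells came from 8 libraries of sorted CD45+ cells, 1 for each condition on days 1, 3, 5 and 7 after wounding, and for each library the wounds of 5 mice were mixed. The diabetic group were male C57BL/6J mice given streptozotocin (STZ, a toxin of pancreatic beta cells) at 120 mg/kg after 12 h of fasting at the age of 4 weeks, and used when blood glucose reached 16.5 mmol/L. The control group were C57BL/6J mice without diabetes, and all mice had a full-thickness wound of the back skin. CD45 marks leukocytes of every kind, so the gate did not select macrophages, and cells were named here from counts alone.

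Macrophages that clear dead cells and lipid-rich debris take in lipid through receptors such as Cd36, break it down in the lysosome, bind the freed fatty acids with carrier proteins, and send cholesterol out through Apoe and the ABC transporters. Trem2, a receptor for lipids and lipoproteins, drives a set of genes in such cells that is often called the lipid-associated macrophage program. Gpnmb is a glycoprotein of the membrane and of lysosome-related organelles, and it is known as a gene switched on by the MiT/TFE transcription factors under lysosomal stress.

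The tables held 19236522 to 33842509 UMIs a library over 38959 barcodes and 21755 gene names. The filter removed 28.6% of the barcodes of the control library of day 5 and 1.00% to 10.8% of those of the other libraries. Gpnmb macrophages were deeper than most cells, with a median of 10161 UMIs and 2771.5 genes (middle range 3687 to 14738 UMIs), against library medians of 2575 to 8234 UMIs over all cells. The median was 6735.5 UMIs in the 6790 C1q-positive cells that kept every other limit but had a Gpnmb rate under 8, called Gpnmb-low macrophages here. It was 6548.5 UMIs in the 972 C1q-positive cells with a Gpnmb rate under 8 and a scavenger receptor rate of at least 5, called scavenger-high macrophages. Since each condition and day had 1 library, the days served as the only repeats. Every p-value below rests on the spread between libraries or days. The tests share information on this spread over genes, so a p-value does not measure the spread of its own gene alone. Every interval covers counting error only.

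The values that chose the cells are a description. The median Gpnmb rate of the members was 15.5 per 10000 UMIs, with a middle range of 10.9 to 26.3 and a highest value of 328. In 104 members, or 8.39%, the rate rested on a single Gpnmb UMI, and 99 members had under 1000 UMIs. Close to the limit, 226 members had a Gpnmb rate of 8 to 10, while 309 cells with a rate of 6 to 8 met all other limits and stayed outside. There were 78 members within 5 of the C1q limit and 91 cells just under it. Scrublet called 5 members as doublets out of 68 in all libraries. It called 0 cells in the diabetic library of day 1 and in the control library of day 5, which held 431 members, and 38 in the control library of day 7. The neutrophil marker limit was reached by 8 members and the T cell marker limit by 2.

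The markers given with the cells were then checked after every cell was thinned to 1000 UMIs, which left out 99 members. A UMI of Trem2 was found in 52.8% of 1141 members (85.4% before thinning), against 32.8% of Gpnmb-low macrophages, 28.1% of scavenger-high macrophages and 6.32% of T cells, which should lack it. Cd36, the class B scavenger receptor for long-chain fatty acids and oxidised lipoprotein, was found in 47.4%, 24.9%, 27.9% and 6.97% in the same order, and Ms4a7, a membrane protein of macrophages, in 59.9%, 45.7%, 42.7% and 6.04%. Pf4, a CXC chemokine made by platelets and macrophages, was found in 62.7% of members and in 68.8% of scavenger-high macrophages, with 15% in T cells. Fcrls, a scavenger-like Fc receptor relative, was found in 21.3% of members, 17.9% of Gpnmb-low and 24% of scavenger-high macrophages, and 2.32% of T cells. All the markers were thus above the T cell background in the members. These shares pool libraries that differ, since the share of members with a UMI ran from 20.4% to 57.7% for Cd36, from 51.7% to 73.7% for Pf4 and from 8.18% to 27.7% for Fcrls over the libraries of days 3 to 7. Comparisons within libraries are given below. T cells had a median of 3987.5 UMIs. Their share was taken as the background, and its source was not tested.

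Gpnmb macrophages were rare on day 1, at 7 cells in the diabetic and 14 in the control library, and common in control wounds later. In the diabetic libraries of days 1, 3, 5 and 7 they made up 0.147% (95% exact interval 0.0592 to 0.303), 2.80% (2.37 to 3.27), 1.10% (0.806 to 1.46) and 3.54% (2.96 to 4.19) of cells. In the control libraries they made up 0.317% (0.174 to 0.532), 1.5% (1.17 to 1.88), 13.2% (12.1 to 14.4) and 8.36% (7.58 to 9.19). The diabetic library was thus above the control library on day 3 and below it on days 5 and 7. The difference, diabetic minus control, was -0.170 percentage points on day 1 (95% interval -0.402 to 0.0418), 1.30 on day 3 (0.727 to 1.87), -12.1 on day 5 (-13.3 to -10.9) and -4.82 on day 7 (-5.83 to -3.81). These intervals treat the cells of 1 library as the only source of error, and no test over libraries was run, since the share is set by the rule. On days 5 and 7 the difference shrank at a stricter Gpnmb limit and widened at a looser one. Both moves went beyond these intervals but kept the sign, and the values are given in the closing section.

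**Figure D1:**
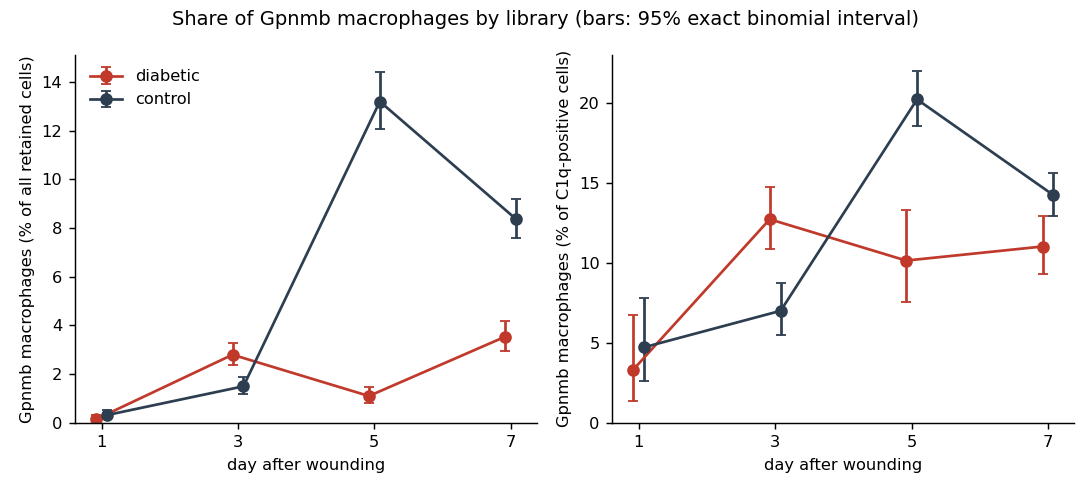
Share of Gpnmb macrophages (y axis, %) by day after wounding (x axis), out of all retained cells (left) and out of C1q-positive cells (right), with 1 point a library and bars for the 95% exact binomial interval. The control library of day 5 reached 13.2% of all cells and 20.2% of C1q-positive cells, while the diabetic libraries of days 3 to 7 stayed between 1.10% and 3.54% and between 10.2% and 12.7%.

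Macrophages of any kind also differed in number. C1q-positive cells made up 4.41%, 21.9%, 10.8% and 32.1% of the diabetic libraries and 6.71%, 21.4%, 65.2% and 58.7% of the control libraries. Out of C1q-positive cells, Gpnmb macrophages took 3.33%, 12.7%, 10.2% and 11% in diabetic wounds and 4.73%, 7.01%, 20.2% and 14.2% in control wounds. The order of the conditions on each day was the same with this denominator. The difference on day 5 was -10.1 percentage points out of C1q-positive cells. The control library of day 5, with the highest share, was also the one that lost most barcodes to the filter, and the part of that loss in the share was not tested.

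Levels of several genes followed the Gpnmb rate of the cells. C1q-positive cells of days 3 to 7 with at least 2000 UMIs and low scavenger receptor and Ctsk rates were split by their Gpnmb rate, and levels were given in CPM (each set's counts scaled by its own UMI total) as the mean ± SD over 6 libraries. The level of Trem2 was 424 ± 86.7 at a Gpnmb rate of 0, 697 ± 117 at 4 to under 8, 781 ± 130.4 at 8 to under 16 and 1087 ± 202 at 32 or more. Fabp5, the epidermal fatty acid binding protein, was at 241 ± 76.3, 583 ± 241, 778 ± 174 and 1886 ± 576 over the same bins, and Ctsd, the lysosomal aspartic protease cathepsin D, at 615 ± 127, 1202 ± 216, 1412 ± 289 and 2836 ± 1117. In each of the 6 libraries these genes were higher in the cells at 32 or more than in the cells at 0, and no step stood out at the limit of 8. Lipa, Cd36, Spp1, Apoe, Cd63, Fabp4, Atp6v0d2 and Ms4a7 were also higher in the top bin in 6 of 6 libraries. Among the members, the bin at 16 to under 32 was above the one at 8 to under 16 in 6 of 6 libraries for Trem2, Fabp5, Ctsd, Lipa and Cd63 and in 5 for Spp1. It was so in 4 for Cd36, Fabp4 and Atp6v0d2, and in 3 for Apoe and Ms4a7. Pf4 went from 1223 ± 436 at a rate of 0 to 2018 ± 588 at 16 to under 32 and was at 1370.3 ± 616 at 32 or more, higher in the top bin than at 0 in 2 of 6 libraries. Fcrls was higher in the top bin in 3 of 6 libraries. Ccr2, Cd74, H2-Ab1 and Il1b were higher in the top bin in 0 of 6 libraries, with Ccr2 at 464 ± 206 at a rate of 0 and 85.6 ± 63.9 at 32 or more. Counted over all 8 libraries, and so with the cells of day 1 that the levels leave out, the bins held 2301, 2256, 681, 545, 285 and 205 cells. Their median depths were 6944, 10649, 8755, 10667, 12328 and 13449 UMIs. Depth over these 8 libraries was thus lowest at a rate of 0 and highest at 32 or more, with a dip at 4 to under 8. The part of depth in these levels was not tested.

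**Figure D2:**
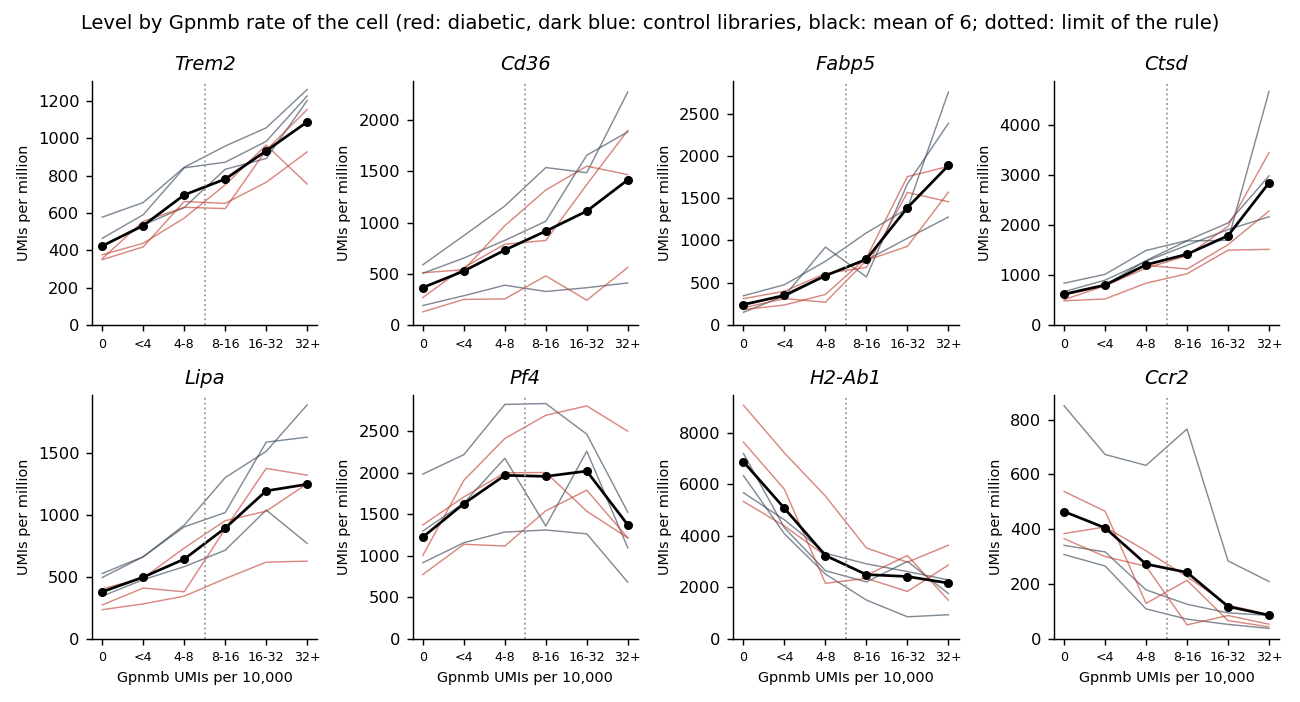
Level of 8 genes (y axis, CPM) in C1q-positive cells split by Gpnmb rate (x axis, Gpnmb UMIs per 10000), with a thin line for each of 3 diabetic and 3 control libraries, the mean of 6 in black and a dotted line at the limit of 8. Trem2, Cd36, Fabp5, Ctsd and Lipa rise from left to right through the limit, H2-Ab1 and Ccr2 fall, and Pf4 is highest in the middle bins.

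The nearest cells were the Gpnmb-low macrophages, which met the same limits but for Gpnmb. For each of the 6 libraries of days 3, 5 and 7 the counts of all cells in a set were added up, and both sets were compared within libraries with the quasi-likelihood test of edgeR, with p-values adjusted by the Benjamini-Hochberg method over all genes. Since the cells were split on Gpnmb, the comparison describes which other genes go with it, and genes of the rule have no test. Of 9890 genes, 698 were higher in Gpnmb macrophages (7.06%) and 734 lower (7.42%), at an adjusted p under 0.05, with a median log2 difference of -0.01 over all genes. Most genes of the lipid hydrolysis, lysosome and heme and iron lists rose, while most of the MHC class II, monocyte, inflammatory and cell cycle lists fell. The number higher was 438 without the control library of day 7. Leaving out the library pairing gave 164 higher and 68 lower. Among the genes of the rule, Gpnmb itself differed by a log2 of 4.36, C1qa by 0.14, C1qb by 0.15, C1qc by 0.30 and Ctsk by 0.47.

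Of the given markers, Trem2, Cd36, Ms4a7 and Pf4 were higher in the members and Fcrls was not called. In Gpnmb macrophages the level of Trem2 was 787, 831 and 815 CPM on days 3, 5 and 7 in diabetic wounds and 1003, 1046 and 917 CPM in control wounds. In Gpnmb-low macrophages it was 404, 422 and 430.4 CPM and 498, 671 and 520.1 CPM. The groups did not overlap, since the lowest member library was above the highest Gpnmb-low library, and the log2 difference was 0.93 ± 0.06 (SE), adjusted p = 2.97e-09. Cd36 reached 459, 1230.0 and 1408 CPM in diabetic and 354, 1663 and 1342 CPM in control members, against 189, 377 and 575 CPM and 219, 865 and 639.9 CPM in Gpnmb-low macrophages. Both sets were lowest on day 3 and so overlapped across days, but the members were higher in each of the 6 libraries, with a log2 difference of 1.22 ± 0.09 (SE), adjusted p = 6.31e-09. Ms4a7 differed by a log2 of 0.49 ± 0.07 (adjusted p = 2.51e-05) and Pf4 by 0.36 ± 0.09 (adjusted p = 0.0123). The call for Pf4 was lost without the diabetic library of day 5 (0.23, adjusted p = 0.0516) or of day 7 (0.29, adjusted p = 0.079), and with a Gpnmb rate of at least 16 (0.28, adjusted p = 0.132). Fcrls was at 422, 343 and 83.3 CPM and 491, 277 and 199 CPM in the members and at 307, 237 and 130.1 CPM and 375, 375 and 244 CPM in Gpnmb-low macrophages, higher in 3 of 6 libraries, with a log2 difference of 0.05 ± 0.12 (SE), adjusted p = 0.848.

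**Figure D3:**
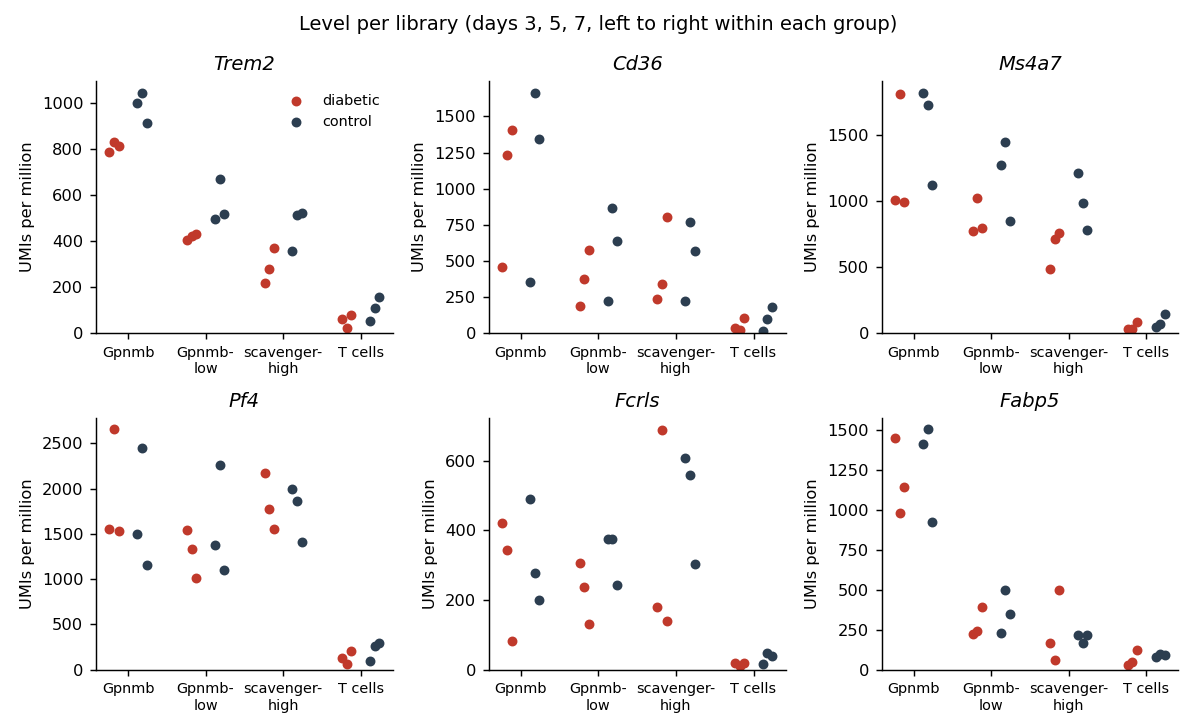
Levels (y axis, CPM) of 5 given markers and Fabp5 in 4 cell sets (x axis), with 1 point for each library of days 3, 5 and 7, left to right, in diabetic (red) and control (dark blue) wounds. Trem2 and Fabp5 of Gpnmb macrophages lie above every library of the other sets, while the Pf4 and Fcrls points of the 3 macrophage sets overlap.

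Among the named genes of lipid binding, hydrolysis, uptake and efflux, fatty acid carriers showed the widest differences. The level of Fabp5 was 1449, 981 and 1143 CPM in diabetic and 1411, 1503 and 924 CPM in control members, against 222, 239.9 and 395 CPM and 231, 499 and 349.8 CPM in Gpnmb-low macrophages. Every member library was above every Gpnmb-low library, and the log2 difference was 2.01 ± 0.13 (SE), adjusted p = 3.38e-09. Fabp4, the adipocyte and macrophage fatty acid binding protein, was low in number, at 62.7 to 123 CPM in members and 8.35 to 46.5 CPM in Gpnmb-low macrophages (log2 1.81). Of 8 genes of lipid binding and storage, 5 rose and 1 fell, with a median log2 of 0.45. Soat1, which esterifies cholesterol for storage, differed by 0.65 and Plin2, which coats lipid droplets, by 0.47, while Dgat1, which makes triglyceride, differed by -0.34. The call for Dgat1 was lost without the diabetic library of day 7 (adjusted p = 0.0532), the control library of day 5 (0.124) or the control library of day 7 (0.108).

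Lipid hydrolysis genes rose together, with 9 of 10 genes higher, 0 lower and a median log2 of 0.42 against -0.01 over all genes. Lipa, the lysosomal acid lipase that frees cholesterol and fatty acids from lipoprotein esters, was at 573, 1136 and 1032 CPM in diabetic and 804, 1478 and 1278 CPM in control members. Its level in Gpnmb-low macrophages was 263, 313 and 485 CPM and 377, 678 and 654 CPM, lower in each library though the sets overlapped across libraries, with a log2 difference of 1.25 ± 0.08 (SE), adjusted p = 3.38e-09. Psap, the precursor of the saposins that present sphingolipids to their hydrolases, was at 7123 to 9718 CPM in the members and 2978 to 4895 CPM in Gpnmb-low macrophages, with no overlap (log2 1.10). Asah1, the acid ceramidase, differed by 0.38. Lpl, the secreted lipoprotein lipase, rose by a log2 of 1.18 but in 5 of 6 libraries, and its call was lost with DESeq2 (adjusted p = 0.0747).

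Of 8 uptake receptor genes measured, 3 rose and 0 fell with a median log2 of 0.10. These were Cd36, Cd68, a scavenger receptor-like glycoprotein of lysosomes (0.77), and Lrp1, an endocytic receptor (0.21, adjusted p = 0.0407). The call for Lrp1 was lost without any 1 of the libraries except that of diabetic day 5, at adjusted p of 0.0942 to 0.232. Of 7 cholesterol efflux genes, 3 rose and 0 fell with a median log2 of 0.28. They were Apoe, the lipoprotein that macrophages secrete with cholesterol (0.81), and the exporters Abca1 (0.37) and Abcg1 (0.43).

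The lipid-associated macrophage list, which shares Fabp5 and Lpl with the lists above, had 12 of 16 genes higher and 1 lower, with a median log2 of 0.69. Spp1, the secreted matrix protein osteopontin, was at 4476, 1297 and 2559 CPM in diabetic and 3196, 3436 and 2508 CPM in control members. It was at 662, 761 and 559 CPM and 623, 1136 and 777 CPM in Gpnmb-low macrophages, below every member library, with a log2 difference of 1.96 ± 0.16 (SE), adjusted p = 3.1e-08. Syngr1, a vesicle membrane protein, differed by 1.84, Lgals3, the lectin galectin-3, by 0.70, and the tetraspanins Cd9 and Cd63 by 0.67 and 0.72. Axl, a receptor tyrosine kinase for dead cells, was the lower gene at -0.52, a call lost without the control library of day 5 (-0.37, adjusted p = 0.106).

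Lysosome genes rose together, with 22 of 28 higher and 1 lower and a median log2 of 0.43. Atp6v0d2, a subunit of the vacuolar proton pump, was at 76.1, 22.4 and 278 CPM in diabetic and 58.0, 241 and 313 CPM in control members. In Gpnmb-low macrophages it was at 19.2, 5.82 and 49.5 CPM and 14.8, 80.3 and 71.4 CPM. Both sets were lowest in the diabetic library of day 5, the members were higher in 6 of 6 libraries, and the log2 difference was 2.08 ± 0.11 (SE), adjusted p = 2.25e-10. Ctsd was at 2362, 1521 and 1275 CPM and 2566, 2042 and 1769 CPM in the members and 731, 622 and 545 CPM and 685, 1063 and 903 CPM in Gpnmb-low macrophages, with no overlap (log2 1.38 ± 0.10, adjusted p = 5.54e-09). Among the other proteases, Ctsl rose by a log2 of 1.12, Ctsb by 0.97 and Ctss by 0.80, and Creg1, a small lysosomal glycoprotein, rose by 1.23. Ctsc, the dipeptidase that activates granule proteases, fell by 0.32. Lamp1, a coat protein of the lysosome membrane, rose by 0.63, Ctsa, the protective protein of galactosidase and neuraminidase, by 0.65, and Mcoln1, a calcium channel of that membrane, by 0.47, though the call for Mcoln1 was lost without the control library of day 7 (0.43, adjusted p = 0.07). Mitf, one of the MiT/TFE factors, rose by 0.31 (adjusted p = 0.0429), a call lost in each omission of 1 library except that of control day 3, at adjusted p of 0.0867 to 0.244.

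The MiT/TFE factors bind the letters CACGTG, best when they stand in TCACGTGA, and lysosome genes often carry them near the start site. RefSeq promoters of GRCm38.p6 (250 bases before to 50 after the start) were matched for 22 of the 28 lysosome genes and searched for these letters, which read the same on both strands; every TCACGTGA also counts as a CACGTG. The shorter motif was present in 8 of 30 promoters of the lysosome list (26.7%), in 74 of 722 promoters of the genes called higher (10.2%), in 73 of 718 of the genes called lower (10.2%) and in 2349 of all 32851 (7.15%). TCACGTGA was present in 5 of 30 (16.7%), 19 of 722 (2.63%), 8 of 718 (1.11%), 195 of 9999 for the genes tested (1.95%) and 320 of 32851 (0.974%). The letters were thus more frequent in promoters of the lysosome list than in those of the genes called higher, whose share of CACGTG lay close to that of all genes tested (10.5%). The promoters below are shown because they belong to lysosome genes that rose in Gpnmb macrophages and hold at least 2 matches. Capitals mark CACGTG, and each run is in the direction of the gene. Lamp1 (chr8:13158911-13159210, plus strand) has matches whose first base lies 61, 45, 28 and 15 bases before the start, Ctsd (chr7:142387778-142388077, minus strand) 245 and 98 before, Mcoln1 (chr8:3500269-3500568, plus strand) 71 and 45 before, and Ctsa (chr2:164833523-164833822, plus strand) 12 before and 5 after. Both matches of Ctsa, the nearer one of Ctsd and the nearer one of Mcoln1 stand in TCACGTGA. The window of Gpnmb held 0 matches, and so did those of Creg1 and Ctss, lysosome genes that rose. Ctsl, Lgmn and Atp6v1a, lysosome genes that also rose, held 1 match in a window. Gla, a lysosome gene that was not called (log2 0.05, adjusted p = 0.68), held 2, both in TCACGTGA. A match describes the letters in this window and not the binding of a factor.
Lamp1: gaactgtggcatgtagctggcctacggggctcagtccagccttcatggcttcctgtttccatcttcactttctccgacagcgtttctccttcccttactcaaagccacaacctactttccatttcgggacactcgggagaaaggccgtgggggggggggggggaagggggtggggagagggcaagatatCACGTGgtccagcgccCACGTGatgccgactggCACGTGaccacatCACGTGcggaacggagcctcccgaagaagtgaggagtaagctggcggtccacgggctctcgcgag
Ctsd: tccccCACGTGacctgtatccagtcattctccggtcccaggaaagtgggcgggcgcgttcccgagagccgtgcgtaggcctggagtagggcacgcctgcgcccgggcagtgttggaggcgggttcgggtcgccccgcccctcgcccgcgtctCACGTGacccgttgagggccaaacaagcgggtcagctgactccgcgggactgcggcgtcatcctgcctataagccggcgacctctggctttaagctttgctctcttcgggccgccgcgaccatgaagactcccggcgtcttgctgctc
Mcoln1: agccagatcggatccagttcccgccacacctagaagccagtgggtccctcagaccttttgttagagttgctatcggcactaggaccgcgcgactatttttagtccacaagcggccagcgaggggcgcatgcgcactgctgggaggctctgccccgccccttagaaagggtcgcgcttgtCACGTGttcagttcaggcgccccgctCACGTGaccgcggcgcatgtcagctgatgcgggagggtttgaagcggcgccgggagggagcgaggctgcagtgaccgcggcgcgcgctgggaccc
Ctsa: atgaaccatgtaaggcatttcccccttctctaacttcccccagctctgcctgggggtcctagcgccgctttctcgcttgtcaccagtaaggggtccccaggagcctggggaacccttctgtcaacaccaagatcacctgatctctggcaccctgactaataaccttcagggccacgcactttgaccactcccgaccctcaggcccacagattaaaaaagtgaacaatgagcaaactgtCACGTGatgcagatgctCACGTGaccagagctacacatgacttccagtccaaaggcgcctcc

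Iron and heme genes rose in 8 of 10 and fell in 0, with a median log2 of 0.46. Slc40a1, the iron exporter ferroportin, was at 17.0, 80.7 and 24.4 CPM in diabetic and 73.4, 246 and 71.1 CPM in control members and at 8.86, 10.0 and 12.1 CPM and 10.8, 72.1 and 44.6 CPM in Gpnmb-low macrophages. The members were higher in each library and highest on day 5 in both conditions, with a log2 difference of 1.56 ± 0.21 (SE), adjusted p = 2.95e-05. Slc48a1, which carries heme out of the lysosome, differed by 0.84, Slc11a1, a metal pump of the phagosome, by 0.50, and the ferritin chains Ftl1 and Fth1 by 0.57 and 0.35. Of 13 dead cell clearance genes, 5 rose and 1, again Axl, fell, with a median log2 of 0.21. Mertk, the kinase receptor for bridged dead cells, differed by 0.70 and Stab1, a receptor for phosphatidylserine, by 0.32. Itgb5, an integrin chain of engulfment, differed by 0.42, which lost its call without the diabetic library of day 3 (0.35, adjusted p = 0.0515).

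Repair factors went both ways, with 7 of 15 higher and 4 lower and a median log2 of 0.30. Igf1, the growth factor of tissue repair, was at 93.7, 603 and 528 CPM in diabetic and 69.6, 476 and 536 CPM in control members and at 33.0, 61.8 and 309 CPM and 62.4, 289.5 and 298 CPM in Gpnmb-low macrophages. Day 3 was lowest in both sets and both conditions, and the log2 difference was 1.22 ± 0.21 (SE), adjusted p = 0.000514. Mmp12, the macrophage elastase, differed by 1.70 and was higher in 5 of 6 libraries, Timp2, an inhibitor of metalloproteinases, by 0.83 and Gdf15, a stress-induced cytokine, by 0.74. Tgfbi, a matrix protein, fell by 0.67.

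Antigen presentation genes were lower in the members. Of 9 measured MHC class II genes, 7 fell and 0 rose, with a median log2 of -1.23. Cd74, the invariant chain, was at 1679, 1978 and 2592 CPM in diabetic and 2514, 915 and 2551 CPM in control members and at 3789.9, 5699 and 6582 CPM and 6453, 3502 and 4713 CPM in Gpnmb-low macrophages. The highest member library was below the lowest of the other set, with a log2 difference of -1.32 ± 0.09 (SE), adjusted p = 3.38e-09. H2-Ab1, H2-Aa and H2-Eb1, the chains of the antigen-presenting molecule, differed by -1.23, -1.25 and -1.29. Monocyte genes fell in 7 of 12 and rose in 0, with a median log2 of -0.62. Ccr2, the receptor that brings monocytes into tissue, was at 143, 123 and 65.3 CPM and 439, 58.0 and 111 CPM in the members and 379, 495 and 313 CPM and 783, 243 and 296 CPM in Gpnmb-low macrophages, lower in each library, with the control library of day 3 highest in both sets. Its log2 difference was -1.56 ± 0.13 (adjusted p = 3.13e-08), and Ly6c2 and Plac8, surface and cytoplasmic markers of young monocytes, differed by -1.16 and -1.39.

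Inflammatory genes fell in 13 of 18 and rose in 0, with a median log2 of -0.36. Il1b, the cytokine interleukin-1 beta, differed by -0.89 ± 0.08 (adjusted p = 2.12e-07), and the chemokines Ccl2, Ccl7 and Ccl4 by -0.79, -0.69 and -0.63. Of 17 cell cycle genes, 13 fell and 0 rose (median -0.80), and of 14 interferon genes, 7 fell and 0 rose (median -0.44). Immediate early and heat-shock genes fell in 8 of 20 and rose in 0 (median -0.14). The heat-shock genes Hspa1b and Hspa1a differed by -1.62 and -1.07, but these are near-identical copies whose reads the counting could split. The 10 widest rises by the naming rule were Atp6v0d2, Fabp5, Spp1, Syngr1, Fabp4, Rnf128, Plpp3, Pianp, Mgst1 and Slc40a1. The 10 widest falls were Retnla, Hspa1b, Mgl2, Ccr2, Ighm, Plac8, Cd74, H2-Eb1, H2-Aa and H2-Ab1. Resident-like genes rose in 5 of 15 and fell in 5 (median -0.26), and osteoclast genes, which include Atp6v0d2, rose in 3 of 11 and fell in 1 (median -0.06). Retnla and Mgl2, genes of alternatively activated macrophages and dendritic cells, differed by -1.66 and -1.59. Plpp3, a lipid phosphate phosphatase, and Mgst1, a membrane glutathione transferase, differed by 1.80 and 1.62.

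Markers of other cells were also present in the members. The 10 neutrophil markers summed to 1476 to 2426 CPM in diabetic and 734 to 2000 CPM in control members, close to T cells of the same libraries at 1370.0 to 2510 and 473 to 1645 CPM. The 10 T cell markers summed to 48.9 to 357 CPM in diabetic and 61.2 to 239.8 CPM in control members, against 7755 to 10059 CPM in T cells. Dendritic cell markers summed to 127 to 228 CPM in diabetic and 81.2 to 103 CPM in control members, with no overlap. B cell markers summed to 21.5 to 269 CPM, mast cell markers to 20.2 to 227 CPM, fibroblast markers to 30.6 to 862 CPM and keratinocyte markers to 0 to 5.05 CPM in members. Against Gpnmb-low macrophages, T cell markers fell in 7 of 9 and dendritic cell markers in 6 of 8, and neutrophil markers fell in 5 of 9 and rose in 2. The part of these cells in the lower values was not tested.

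**Figure D4:**
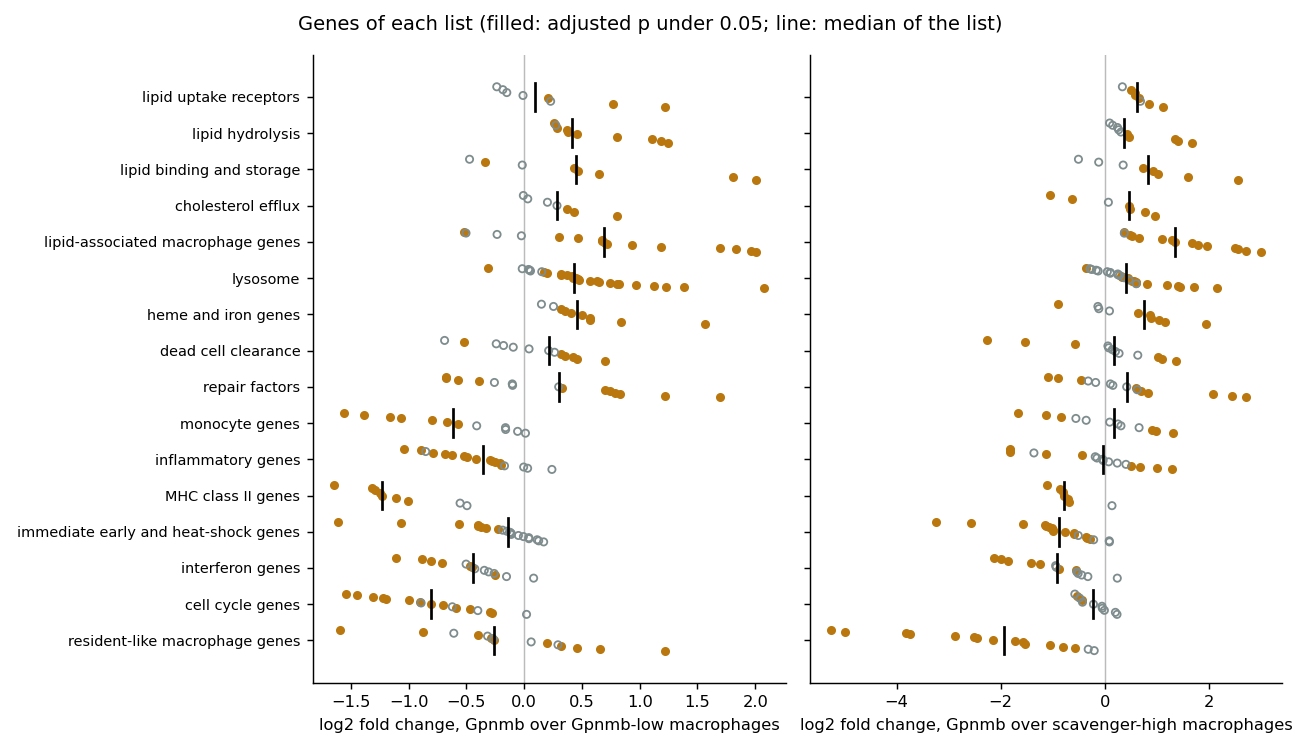
Log2 differences (x axis) of the genes of 16 lists (y axis) between Gpnmb macrophages and Gpnmb-low macrophages (left) or scavenger-high macrophages (right), filled at an adjusted p under 0.05, with a line at the median of a list. Lipid hydrolysis, lysosome and lipid-associated genes lie mostly to the right in both panels, and MHC class II genes to the left.

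The scavenger-high macrophages, which carry receptors of resident skin macrophages, were set apart on Gpnmb and the scavenger receptors Lyve1, Cd163, Cd209f and Fcna. Of 7829 genes compared in the same way, 698 were higher in Gpnmb macrophages (8.92%) and 832 lower (10.6%), with a median of 0.00. The counts were 434 and 544 without the control library of day 5, and 386 and 519 without the library pairing. The other resident-like genes fell in 14 of 16 and rose in 0, with a median log2 of -1.94. Cd209d, a lectin, was at 0 to 12.2 CPM in members and 76.3 to 378 CPM in scavenger-high macrophages (log2 -4.99), and the chemokine Ccl8, the carbonyl reductase Cbr2 and the mannose receptor Mrc1 differed by -3.82, -2.87 and -1.57. The lipid-associated list rose in 14 of 15 and fell in 0 (median 1.34), lipid hydrolysis in 5 of 10 and 0 (0.37), lipid binding in 5 of 8 and 0 (0.83), uptake receptors in 6 of 8 and 0 (0.62), and lysosome genes in 14 of 28 with 1 lower (0.41). Cholesterol efflux genes rose in 4 of 7 and fell in 2 (0.46).

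Fabp5 was at 169, 62.1 and 498 CPM in diabetic and 217, 169.8 and 219 CPM in control scavenger-high macrophages, below the 924 to 1503 CPM of the members in every library. Its log2 difference was 2.56 ± 0.23 (SE), adjusted p = 3.59e-07. Trem2 was at 219, 277 and 372 CPM and 359, 512 and 521 CPM, also below every member library, and its log2 difference was 1.30 ± 0.13 (SE), adjusted p = 1.1e-06. Cd36 differed by 1.11, Ms4a7 by 0.78, Lipa by 1.41, Psap by 1.34 and Lpl by 1.67, all called. Pf4 was at 2172, 1773 and 1552 CPM and 1992, 1862 and 1414 CPM in scavenger-high macrophages, within the range of the members (-0.03 ± 0.13, adjusted p = 0.931). Fcrls differed by -0.40 ± 0.21 (adjusted p = 0.224). Without the diabetic library of day 3 Fcrls was called lower, at -0.73 (adjusted p = 0.000444).

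Mmp14, the membrane-bound collagenase, was at 245, 412 and 282 CPM in diabetic and 358, 241 and 158 CPM in control members, against 30.1, 22.6 and 65.6 CPM and 75.4, 45.5 and 41.3 CPM, with no overlap (log2 2.44). Mmp12 differed by 2.70, and Vegfa, the vessel growth factor, by 2.08, while Hbegf, an epidermal growth factor relative, fell by 1.10. Repair factors rose in 6 of 15 and fell in 3 (median 0.42), and Spp1 had 310.4, 548 and 323 CPM in diabetic and 88.7, 461 and 486 CPM in control scavenger-high macrophages, below every member library. Among dead cell genes, 3 of 12 rose and 3 fell: the bridging proteins Pros1 and Gas6 differed by -2.26 and -1.54, and Itgb5 by 1.38. Immediate early and heat-shock genes fell in 16 of 20 and rose in 0 (median -0.88), with Dnajb1, a chaperone, at -1.13 and Atf3, a stress transcription factor, at -1.15. The monocyte chemokines Ccl2 and Ccl7 both differed by -1.82, while Ptgs2, the inducible prostaglandin synthase, rose by 1.28, and the inflammatory list had 4 of 17 higher and 5 lower (median -0.04).

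Cells that met every limit but the one on Ctsk, the collagen-cutting cathepsin K, were few. There were 31 Ctsk-high cells, 22 of them in the control library of day 5, so no test was run. In that library several genes of bone-resorbing cells were higher than in the members, and the lipid markers went several ways. The ratio of Ctsk-high cells to members was 2.11 for Acp5, the acid phosphatase of osteoclasts (95% counting interval 1.71 to 2.59), 3.03 for Atp6v0d2 (2.55 to 3.59) and 3.37 for Mmp9, the gelatinase (2.84 to 3.97), but 0.947 for Tnfrsf11a, the receptor RANK of osteoclast precursors (0.483 to 1.68), and 1.31 for Itgb3, an integrin chain, on 1 UMI (0.0313 to 8.35). It was 2.47 for Spp1 (2.36 to 2.60), 0.993 for Trem2 (0.864 to 1.14) and 1.05 for Cd36 (0.946 to 1.17). It was 0.874 for Lipa (0.772 to 0.986), 0.734 for Ms4a7 (0.648 to 0.829), 0.707 for Pf4 (0.636 to 0.784), 0.663 for Fabp5 (0.576 to 0.760) and 0.456 for Fcrls (0.299 to 0.667). These intervals treat the summed UMIs as independent and leave out the spread between cells.

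The condition was then compared within Gpnmb macrophages, to ask whether the cells differ in diabetic wounds beyond their number. The 6 libraries with at least 20 members were used, with day as a block, which left 2 residual degrees of freedom. Of 7875 genes, 25 were higher in diabetic Gpnmb macrophages (0.317%) and 14 lower (0.178%), each in the same direction on all 3 days, with a median log2 of -0.01. The lipid and lysosome genes that mark the cells were not among them. Those higher included 5 of 17 inflammatory genes, and those lower 6 of 20 immediate early and heat-shock genes, Slc40a1 and Mmp9. Without the diabetic library of day 5 the counts were 96 and 75, and without the control library of day 5 they were 102 and 75. The number lower was 8 without the library of either condition on day 7, and the number higher was 40 without the control library of day 3. With no block for day, 4 genes were higher and 3 lower.

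Of the given markers other than Gpnmb, none was called. Gpnmb was at 3111, 2415 and 2509 CPM in diabetic and 2957, 2641 and 2321 CPM in control members, a description with no test, since every member was chosen by its Gpnmb rate. Trem2, with the levels given above, was lower in each diabetic library than in every control library, at -0.28 ± 0.14 (adjusted p = 0.533). Cd36 overlapped between conditions at a log2 of -0.0048 (adjusted p = 0.994). The log2 differences were 0.19 for Pf4, -0.37 for Fcrls and -0.31 for Ms4a7, with adjusted p of 0.604 to 0.705. Fcrls was called lower without the diabetic (-0.71, adjusted p = 0.0114) or the control (-0.71, 0.013) library of day 5, and turned positive without either library of day 7 (0.04 and 0.03). Of 10 lipid hydrolysis, 8 lipid binding, 8 lipid uptake, 16 lipid-associated and 28 lysosome genes, 0 were called, with medians of -0.13, -0.14, 0.06, -0.09 and -0.03. In the efflux list, 1 of 7 fell. This was Mylip, the ligase that degrades the LDL receptor (-1.30, adjusted p = 0.0046), and its call was lost at a Gpnmb rate of at least 16 (-1.02, adjusted p = 0.0792).

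Of 17 inflammatory genes, 5 were higher in diabetic Gpnmb macrophages and 0 lower, and all 17 had a positive difference with a median log2 of 0.65. Markers of other cells moved both ways. With 0 called in either list, 6 of 6 dendritic cell markers were positive with a median of 0.91, and 6 of 7 T cell markers with a median of 0.69. Of 9 neutrophil markers 7 were positive with a median of 0.22, and 1, Lcn2, was called. Fibroblast markers were positive in 1 of 6 with a median of -0.90, and 1, the collagen chain Col1a2, was called lower at -1.44 (adjusted p = 0.0252), a call lost without the diabetic (0.689) or the control (0.725) library of day 7. Mast cell markers were positive in 0 of 3 (median -0.44) and B cell markers in 1 of 2 (median -0.86). The part of these cells in the inflammatory genes was not tested. The level of Il1rn, the interleukin-1 receptor antagonist, was 1213, 1716 and 1442 CPM in diabetic and 684, 568 and 687 CPM in control wounds. The conditions did not overlap and the log2 difference was 1.17 ± 0.16 (SE), adjusted p = 0.00477. The call was lost among cells with a Gpnmb rate of at least 16 (0.87, adjusted p = 0.0817). The neutrophil chemokine Cxcl3 was at 706, 981 and 498 CPM and 346, 346 and 255 CPM, with a log2 of 1.17 ± 0.16 (adjusted p = 0.0042). Acod1, which makes itaconate, was at 498, 332 and 219 CPM and 162, 69.0 and 154 CPM, and Slpi, a protease inhibitor, at 732, 591 and 412 CPM and 265, 92.5 and 244 CPM. Both were higher in diabetic members on each day (1.44 and 1.61), though the call for Slpi was lost with DESeq2 (adjusted p = 0.0997). Il1a, the cytokine interleukin-1 alpha, differed by 1.08, a call lost without the diabetic (adjusted p = 0.16) or the control (0.127) library of day 7. Il1b was higher in diabetic members on each day, at 0.65 ± 0.14, with an adjusted p of 0.0611 that missed the threshold. It passed without either library of day 5 (adjusted p = 0.0291 and 0.0331) and with DESeq2 (0.00711).

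The widest differences were in Inhba and Chil3. Inhba, the activin A subunit, was at 62.5, 161 and 126 CPM in diabetic and 27.1, 20 and 21.6 CPM in control members, with no overlap and a log2 difference of 2.47 ± 0.28 (SE), adjusted p = 0.00247. Chil3, a chitinase-like protein of monocytes and alternatively activated macrophages, was at 933, 69.5 and 128 CPM and 131, 21.5 and 26.2 CPM. It was highest on day 3 in both conditions, so the groups overlap across days, and within days the log2 difference was 2.34 ± 0.21 (SE), adjusted p = 0.000385. Chil3 and F10, a clotting factor gene of monocytes, were the 2 of 12 monocyte genes that were called. Cd274, the checkpoint ligand PD-L1, was at 303, 242 and 286 CPM and 75.4, 149.7 and 100.3 CPM (1.37 ± 0.21, adjusted p = 0.00884), a call lost without the diabetic (0.0925) or the control (0.0673) library of day 7. Lyz1, a lysozyme, and Lcn2, the siderophore-binding lipocalin, differed by 1.63 and 2.23, and Lyz1 shares near-identical sequence with Lyz2. The call for Lyz1 was lost at a Gpnmb rate of at least 16 (1.35, adjusted p = 0.615), and that for F10 without the diabetic library of day 7 (1.27, adjusted p = 0.065).

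Among the genes lower in diabetic members, immediate early and heat-shock genes were 6 of 20, with a median log2 of -0.61. Fos, a subunit of the AP-1 transcription factor, was at 797, 730.4 and 843 CPM in diabetic and 2278, 1668 and 1849 CPM in control members, with no overlap and a log2 difference of -1.28 ± 0.15 (SE), adjusted p = 0.00247. Its partner Jun was at 492, 453 and 479.7 CPM and 1256, 879.8 and 1065 CPM (-1.15), and Egr1, a growth-induced transcription factor, at 354, 374 and 607 CPM and 792, 1338 and 1109 CPM (-1.27), again with no overlap. The others were Nr4a1, Hspa1a and Hspa1b, and Nr4a1 and Hspa1a lost their call without the diabetic library of day 7 (adjusted p = 0.172 and 0.065) or the control library of day 7 (0.159 and 0.0612). Slc40a1, which rose in the members against Gpnmb-low macrophages, fell in diabetic members by 1.71 on the log2 scale (adjusted p = 0.00271) at the levels given above, with overlap between the control libraries of days 3 and 7 and the diabetic library of day 5. Mmp9 was at 83.5, 51.5 and 22.8 CPM and 197, 228 and 109 CPM (-1.82, adjusted p = 0.00271), and its call was lost among cells with a Gpnmb rate of at least 16 (-1.31, adjusted p = 0.32). Its levels did not overlap between the conditions.

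Some of these RNAs were also found in T cells and neutrophils, and the T cell level of Slpi moved with the condition. In T cells of the same libraries, Slpi was at 604, 547 and 299 CPM in diabetic and 230.2, 48.0 and 194 CPM in control wounds, and its mean over libraries was 82.3% of that of the members. This share was 102% for Lcn2 and 74.8% for Acod1, but 18.8% for Inhba, 22.3% for Chil3, 27.9% for Il1rn, 42.3% for Fos and 4.88% for Slc40a1. Over the 25 genes higher, the T cell mean was at least 50% of that of the members for 9 and under 25% for 8. Neutrophils numbered 1931, 1308 and 456 in the diabetic libraries of days 3, 5 and 7 and 1440, 150 and 511 in the control libraries. Their mean was at 50% or more of that of the members for 22 of the 25, among them Il1rn (419%), Inhba (362%) and Chil3 (65.5%). Both were under 25% for 3 genes, namely Flrt3, an adhesion protein, Lyz1 and Mmp19, a metalloproteinase. The call for Mmp19 was lost without the diabetic library of day 3 (adjusted p = 0.0527) or of day 7 (0.427) or the control library of day 7 (0.373). Over the 14 genes lower, the T cell mean was at least 50% of that of the members for 7 and the neutrophil mean for 9, and both were under 25% for 0. Slc40a1, low in T cells, was at 132% of the member level in neutrophils. The part of free RNA from these cells in the differences was not tested.

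**Figure D5:**
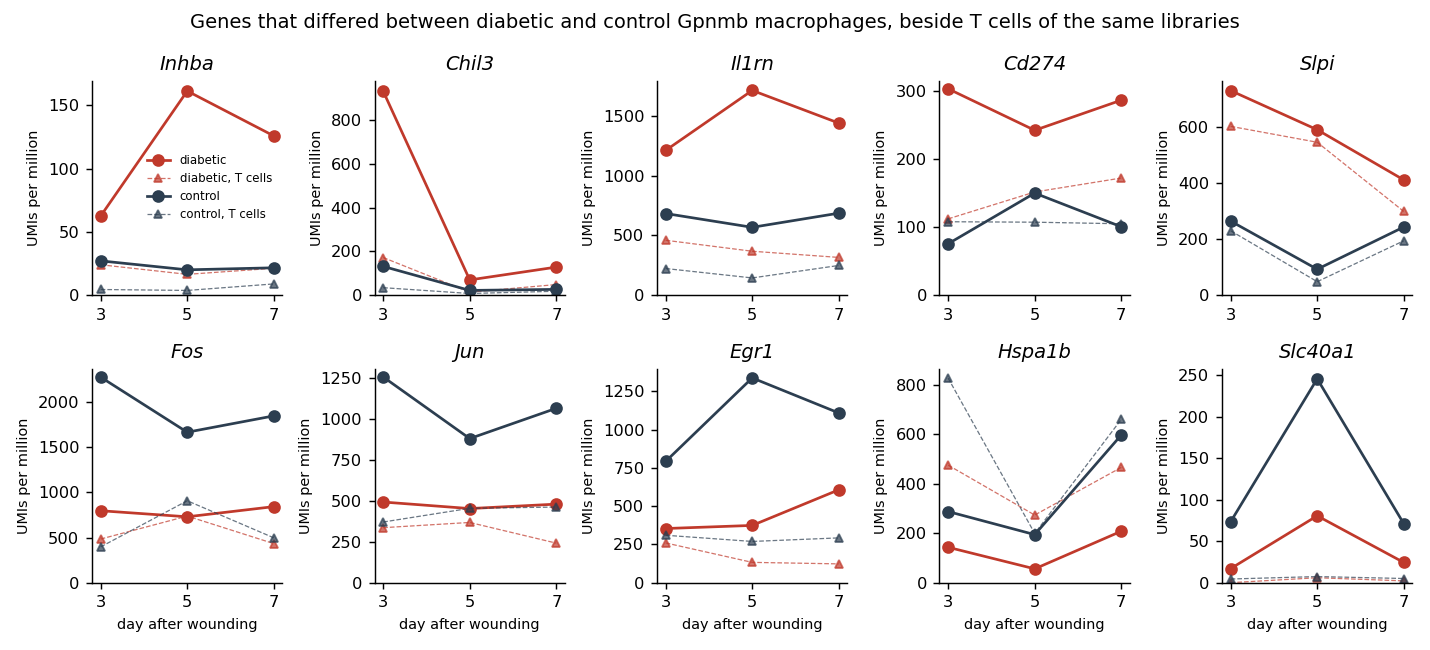
Levels (y axis, CPM) of 5 genes higher (top) and 5 lower (bottom) in diabetic Gpnmb macrophages by day after wounding (x axis), with diabetic libraries in red and control libraries in dark blue, and T cells of the same libraries as dashed lines with triangles. Inhba, Il1rn and Slc40a1 lie above the T cells in every library, Slpi runs close to them, and Hspa1b is lower in members than in T cells.

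The difference between conditions was also compared between Gpnmb macrophages and Gpnmb-low macrophages, as an interaction chosen after the data were seen. With edgeR 0 of 9890 genes were called, with 323 at an unadjusted p under 0.05, and DESeq2 called 0 with 150. In Gpnmb-low macrophages alone, 11 genes were higher and 3 lower of 10555 tested. Chil3 differed there by 2.64, Inhba by 1.64 and Il1rn by 0.86, all called, and Fos by -0.77 (adjusted p = 0.178). No gene was therefore shown to respond to diabetes differently in Gpnmb macrophages. A p that misses the threshold does not show that the responses were alike.

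Change with time was tested as a slope per day over days 3, 5 and 7, with condition as a term. Of 7875 genes, 15 were higher with time (0.19%) and 2 lower (0.0254%). Collagens and other fibroblast genes were 5 of the 15. The level of Col1a1, a chain of type I collagen, was 9.51, 8.96 and 119.5 CPM in diabetic and 17.4, 21.7 and 253 CPM in control members, and 0, 2.98 and 73.1 CPM and 10.3, 22.1 and 216 CPM in T cells. Day 7 was highest in each of these, and the T cell level over libraries was 75.3% of that of the members. The T cell genes Icos, Tnfrsf9 and Ets1 were also called. Of the 15 genes, 10 had a T cell mean of at least 50% of that of the members and 4 one under 25%. The part of free RNA was not tested.

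Of the genes with low T cell and neutrophil levels, Mmp12 and Mmp19 were higher with time. Mmp12 was at 22.4, 67.2 and 266 CPM in diabetic and 44.4, 335 and 387 CPM in control members on days 3, 5 and 7, lowest on day 3 in both. Its slope was a log2 of 0.78 ± 0.11 (SE) a day, adjusted p = 0.0164. Aif1, an actin-bundling protein of macrophages, had a slope of -0.29 ± 0.05 (adjusted p = 0.0226). Cd36 and Fcrls had slopes of 0.42 (adjusted p = 0.236) and -0.44 (0.0625), which missed the threshold, though Cd36 passed without the control library of day 5 (adjusted p = 0.00107) and Fcrls without the diabetic library of day 5 (0.034), the control library of day 3 (0.0366) or that of day 5 (0.00507). Mmp19 lost its call without the diabetic library of day 3 (adjusted p = 0.2) or of day 7 (0.359) or the control library of day 7 (0.111). Mmp12 lost its call without the diabetic library of day 3 (adjusted p = 0.2), of day 5 (0.0619) or of day 7 (0.264). Aif1 lost its call without the diabetic library of day 3 (0.15) or of day 7 (0.264) or the control library of day 3 (0.0813) or of day 7 (0.174). The counts moved with single libraries. Without the diabetic library of day 3 the counts were 5 and 0, without that of day 7 they were 3 and 0, and without the control library of day 7 they were 4 and 0. They were 39 and 5 without the control library of day 3 and 38 and 16 without that of day 5, and 4 were lower without the diabetic library of day 5. A difference in slope between conditions was called for 0 genes with edgeR ( 138 at an unadjusted p under 0.05) and for 0 with DESeq2 (37), but leaving out single libraries gave 0 to 24 genes with a steeper rise and 0 to 26 with a lower one in diabetic wounds. Without the diabetic library of day 7 these were 2 and 1, without the control library of day 3 they were 3 and 26, without that of day 5 they were 1 and 3, and without that of day 7 they were 24 and 10.

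On day 1 the members were too few to compare. The 7 diabetic and 14 control cells of that day had Trem2 at 116 and 161 CPM, Cd36 at 1086 and 548 CPM, and Lipa at 38.8 and 204 CPM. Trem2 was below every later member library, and so was Lipa.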

How the data were processed

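Sorted CD45+ wound cells of 8 libraries were sequenced. The authors deposited UMI counts per gene and barcode, not normalized, and the submitters' processing notes name fastp 0.20.1 and mm9, while the study's methods name an Ensembl mouse genome. The platform is given as BD Rhapsody in the methods and as 10X in the design text. Barcodes are named by a running number, so barcodes shared between libraries could not be counted. The 13 mitochondrial genes were left out of the 21755.

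The members and lists were chosen with earlier results of these data known. Counts were summed over the cells of a set in each library with at least 20 cells. They were tested with the quasi-likelihood test of edgeR 4.0.16 in R 4.3.3 (TMM, filterByExpr, Benjamini-Hochberg adjustment over all genes, threshold 0.05). Library was a block for the comparisons of cell sets and day was a block for condition, while the slope had condition as a term. T cells and neutrophils were set by marker rates of Cd3 (10) and S100a8 with S100a9 (100) per 10000 UMIs. Shares have 95% exact binomial (Clopper-Pearson) intervals, and shares of cells with a UMI were taken after thinning to 1000 UMIs. Named genes were the 10 widest rises and falls that passed the test, went the same way in every library or day and reached 50 CPM, up to 4 members of a list with the smallest adjusted p, and the given markers. Others named in the text were chosen after their values were seen. DESeq2 1.42.0, other size factors, other limits on Gpnmb, depth and genes, omission of doublets (scanpy 1.11.5) and of each library were tried as alternatives. On simulated counts with 200 genes changed by a log2 of 2, the test recovered 80% of them for condition (7659 genes), 61% for the slope (7644), 98.5% against Gpnmb-low (9750) and 88.5% against scavenger-high macrophages (7626), with 4, 8, 7 and 6 false calls. The simulated counts had the same fixed dispersion for every gene and no effects of library or day beyond the added change. For the slope, the log2 of 2 was the whole change from day 3 to day 7. The recovery and false calls therefore do not give the power or error of the tests on the real counts. Promoters came from RefSeq. Of the 2 genes lower with time, 1 is not reported here.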

Additional observations from a re-analysis of the deposited data

How the results depend on the processing

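The comparisons of cell sets used libraries as pairs and that of condition used days as pairs. With no replicate block, the calls against Gpnmb-low macrophages were 164 higher and 68 lower, those against scavenger-high macrophages 386 and 519, and those between conditions 4 and 3. Between conditions, 38 genes were higher with DESeq2, 16 higher and 6 lower at a Gpnmb rate of at least 16, 60 and 26 with at least 5 cells a library (an alternative chosen after seeing the data, which brings in day 1), and 90 and 56 with no filter on low counts. For the slope per day, 12 genes were lower with DESeq2, 4 were lower in cells with at least 2000 UMIs, 28 were higher and 34 lower with at least 5 cells, and 134 and 42 with no filter. With no filter, the difference in slope gave 1 higher and 2 lower, and the difference between cell sets in the effect of diabetes 6 and 2. The cause of these shifts was not tested.

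Leaving out 1 library at a time gave 438 to 659 higher and 522 to 737 lower against Gpnmb-low macrophages, 434 to 742 and 544 to 854 against scavenger-high macrophages, 23 to 102 and 8 to 75 between conditions, 3 to 39 and 0 to 16 for the slope, and 0 to 24 and 0 to 26 for the difference in slope. Of 82 genes named against Gpnmb-low macrophages, 36 kept their side of the threshold with no block, and 76 to 81 in the other settings. With no block 65 of 68 did so against scavenger-high macrophages. Between conditions 13 of 39 did so with no block and 21 at a Gpnmb rate of at least 16. Without the control or the diabetic library of day 7 it was 24 and 23, and in the other settings 33 to 38. For the slope, 7 of 19 did so without the diabetic library of day 3, 4 without that of day 7 and 6 without the control library of day 7. It was 12 to 19 in the other settings. The difference in share on day 5 was -5.92 points at a Gpnmb rate of at least 16, -18.8 at 4, -13.5 in cells with at least 2000 UMIs and -10.1 out of C1q-positive cells. On day 7 it was -1.26 at 16, -9.65 at 4 and -3.21 out of C1q-positive cells, and with that denominator it was -1.40 on day 1 and 5.73 on day 3.

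Reversals concerned uncalled markers, apart from Il7r. Between conditions Cd36 turned to 0.0064 with DESeq2 size factors, 0.0077 with DESeq2, 0.0055 without doublets and 0.10 with at least 5 cells, and ranged from -0.17 to 0.21 when 1 library was left out, turning without either library of day 5. Fcrls turned to 0.14 at a rate of at least 16, and with 1 library left out it ranged from -0.71 to 0.041, turning without either library of day 7. The slope of Il7r turned to -0.074 with at least 5 cells. Against Gpnmb-low macrophages Fcrls turned to -0.21 at a rate of at least 16 and ranged from -0.069 to 0.15, turning without the diabetic library of day 3 or 5 or the control library of day 3. Against scavenger-high macrophages Pf4 turned to 0.052 with no filter and 0.029 with no block, and ranged from -0.14 to 0.066, turning without either library of day 3 or the control library of day 7. The comparison with Ctsk-high macrophages was not run, since 1 library held at least 20 of them. Omitting day 1 is the same as the comparison reported.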
